A study of Homo sapiens with 2 samples.

Results

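The long non-coding RNA (lncRNA) genes MALAT1, NEAT1, NORAD, TUG1, OIP5-AS1 and PVT1 were examined in REH and 697, which are lines of B-cell precursor acute lymphoblastic leukemia. They were listed by symbol as abundant nuclear or scaffold lncRNAs, and all 6 were found among the 57773 gene IDs counted. Each passed the minimum of 10 reads in at least 1 library that 19145 genes met. In REH, ETV6 is fused to RUNX1 and the remaining ETV6 allele is deleted, whereas 697 is negative for ETV6/RUNX1. Both lines came from the DSMZ repository, were grown untreated in RPMI medium with fetal bovine serum, glutamine and antibiotics, and are each represented by 1 library of total RNA. No spread between cultures is therefore known, no test was possible, and every ratio compares these libraries and not the lines in general.

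These RNAs are studied for roles that need no translation. MALAT1 gathers in nuclear speckles, the depots of splicing factors, and NEAT1 is the scaffold around which paraspeckles, nuclear bodies rich in RNA-binding proteins, are built. NORAD binds Pumilio proteins, which repress mRNAs, and keeps them from their targets. TUG1 has been linked to the Polycomb repressive complex, OIP5-AS1 (also called Cyrano) directs the decay of the microRNA miR-7, and PVT1 is the neighbour of the MYC oncogene and is often gained together with it in cancer. The long forms of MALAT1 and NEAT1 are not finished by an ordinary poly(A) tail but by RNase P cleavage, which leaves a folded end, and a shorter, polyadenylated form of NEAT1 shares its start. Counts per gene do not separate these forms. The sample labels describe depletion of ribosomal RNA while the study's methods describe poly(A) purification. The labels also call the libraries stranded. However, of the reads summed over the strand columns, 50.1% in REH and 50.2% in 697 lay on the strand of the gene. Which purification was used was not tested.

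The sequence elements for which NORAD and OIP5-AS1 are known were located in their longest GENCODE 44 transcripts. Counts per gene do not show which transcripts were present, so the RNAs counted here may lack some of these elements. For OIP5-AS1 the longest transcript has 8.88 kb and the canonical transcript 3.23 kb. The Pumilio element TGTANATA, searched on the transcript strand only, occurred 15 times in the 5.40 kb of NORAD, or 2.78 times per kb. Of 3390 canonical transcripts of lncRNA genes of at least 2 kb, 25.8% held the element, at 0.117 per kb over all of them, and 99.9% had a lower density than NORAD. Examples from NORAD follow, with the element in capitals.
NORAD bases 808 to 837: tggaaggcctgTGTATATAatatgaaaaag
NORAD bases 1187 to 1216: cctcactactgTGTATATAgttgacaatgc
NORAD bases 3019 to 3048: caaccctactgTGTATATAgcggacaaact
NORAD bases 4646 to 4675: attagcctattTGTAAATAcctttgttata
Of the other 5 transcripts, NEAT1 held 6 elements in 22.7 kb, of which several lie in runs of alternating T and A, TUG1 held 2, OIP5-AS1 held 1, and MALAT1 and PVT1 held none.

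OIP5-AS1 held 3 matches to the seed of miR-7 (bases 2 to 8, in capitals below), whereas the other 5 transcripts held none. Of the 3390 canonical transcripts, 21.8% held this match, a share that grows with length. Per kb, there were 0.338 matches in the longest transcript of OIP5-AS1 and 0.0872 over the canonical transcripts. The mature microRNA is that of RefSeq on GRCh38.p14. The sites are printed with the seed match GTCTTCC in capitals.
hsa-miR-7-5p: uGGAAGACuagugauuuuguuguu
OIP5-AS1 bases 747 to 782: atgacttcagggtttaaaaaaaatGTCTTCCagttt
OIP5-AS1 bases 2910 to 2945: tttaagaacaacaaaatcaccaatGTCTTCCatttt
OIP5-AS1 bases 8190 to 8225: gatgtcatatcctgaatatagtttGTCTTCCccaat
Upstream of the seed match, the site at bases 2910 to 2945 held an unbroken run of 14 bases complementary to the 3′ part of miR-7, against 5 and 3 bases in the other sites. These matches describe the sequence and not the binding in these cells, and miR-7 itself was not measured.

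The libraries held 45188375 gene reads in REH and 41097497 in 697, where 3 reads correspond to 0.0664 and 0.0730 CPM before scaling. Levels are given as CPM, that is gene reads per 1000000, with library totals scaled by the trimmed mean of M-values (TMM). Reads were spread evenly over the strands in both libraries, so a lncRNA cannot be told apart from a transcript on the other strand. All 12 B-cell precursor markers were detected in both libraries and summed to 6016 CPM in REH and 8557 in 697, although VPREB1, a surrogate light chain gene, had 3 reads in REH and 10039 in 697. ETV6 had 1334 and 3401 reads. Of the T-cell markers 4 of 5 were counted, with sums of 0.935 and 0.298 CPM and CD3D at 0 in both. The 5 myeloid markers summed to 261 and 2.25 CPM, of which MPO had 12643 reads in REH and 12 in 697 and ITGAM 403 and 0. The 3 erythroid markers summed to 0 and 0.0271 CPM, and the 4 of stroma and epithelium to 9.51 and 10.5, nearly all from COL1A1 (477 and 387 reads), with COL3A1 and KRT18 at 0 in both. The part of these differences in the results below was not tested.

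The 6 lncRNA genes were read in both libraries at levels that differed by at most 1.83-fold. None reached a log2 ratio of 1 in size, whereas 39.8% of all genes tested did, with 22.4% higher in REH and 17.4% higher in 697. Among lncRNA genes, taken here as the 3047 tested genes of that GENCODE 44 biotype including TUG1, the share was 51.3%. It was 46.1% among the 128 of them that reached 1000 reads in either library. Genes high in 1 library and nearly absent from the other enter that set, with log2 ratios from -11.9 to 11.6. Its share is thus not that of genes deeply counted in both libraries. PVT1 reached this depth in REH and the other 5 genes in both libraries. The median log2 ratio (REH over 697, with 0.5 reads added) of the 6 was -0.10, and the median of their sizes without sign was 0.21. Over all genes tested these medians were 0.05 and 0.74, and over the 128 deeply counted lncRNA genes they were -0.13 and 0.90. Over all 8490 genes with at least 1000 reads in either library, they were -0.07 and 0.50.

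MALAT1 (chromosome 11, 65497640 to 65508073 in GENCODE 44 on GRCh38, plus strand) had 12315 reads in REH and 9961 in 697. This amounted to 245 CPM (95% Poisson interval 241 to 249) and 270 CPM (264 to 275). Its log2 ratio was -0.14 with a 95% counting interval of -0.18 to -0.10, a 1.10-fold difference. NEAT1, which lies 52.1 kb upstream on the same strand (65422774 to 65445540), had 14406 and 11081 reads, or 287 CPM (282 to 291) and 300 CPM (294 to 306). Its log2 ratio was -0.07 (-0.10 to -0.03). For each MALAT1 read there were 1.17 NEAT1 reads in REH and 1.11 in 697, and the log2 ratio of MALAT1 lay 0.07 below that of NEAT1 (interval of the difference -0.12 to -0.02).

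TUG1 (chromosome 22, 30969245 to 30979395, plus strand) received the most reads of the 6 in REH. It had 19894 reads in REH and 16525 in 697, or 396 CPM (390 to 401) and 447 CPM (440 to 454), with a log2 ratio of -0.18 (-0.21 to -0.15). TUG1 is listed as protein-coding in GENCODE 44, and was kept here as a lncRNA by its listing. NORAD (chromosome 20, 36045618 to 36051018, minus strand) had 10293 and 6427 reads, or 205 CPM (201 to 209) and 174 CPM (170 to 178). Its log2 ratio was 0.24 (0.19 to 0.28), so that NORAD was slightly higher in REH.

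The largest differences within the group were found for OIP5-AS1 and PVT1, in opposite directions. OIP5-AS1 (chromosome 15, 41283958 to 41322392, plus strand) had 14278 reads in REH and 17416 in 697. This was 284 CPM (279 to 289) against 471 CPM (464 to 478), a log2 ratio of -0.73 (-0.76 to -0.70) or 1.66-fold, and gave it the most reads of the 6 in 697. PVT1 (chromosome 8, 127794526 to 128187101, plus strand) received the fewest reads in both libraries, with 1466 reads in REH and 588 in 697. Its levels were 29.2 CPM (27.7 to 30.7) and 15.9 CPM (14.7 to 17.3), a log2 ratio of 0.87 or 1.83-fold. The counting interval of this ratio, 0.73 to 1.01, reached the threshold of 1.

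**Figure D1:**
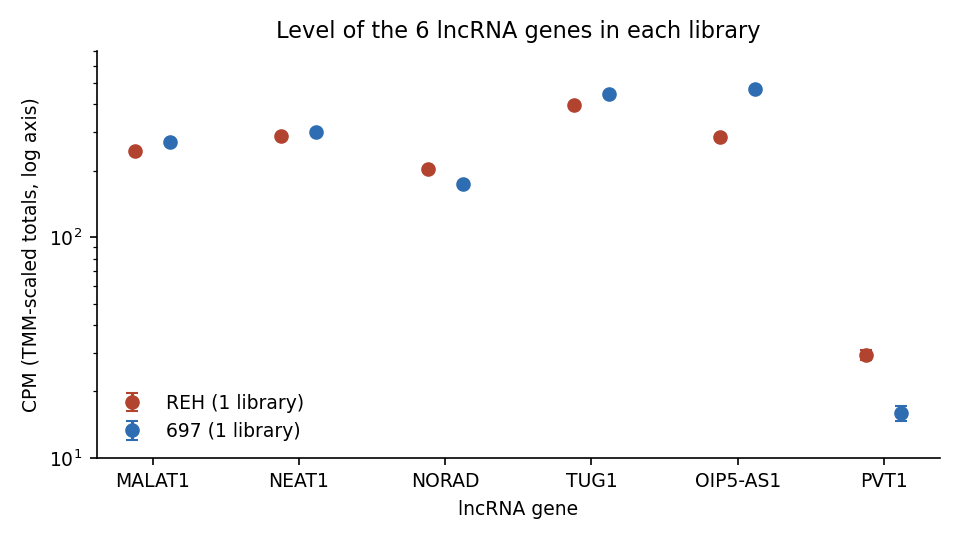
Level of each lncRNA gene (x axis) in CPM of TMM-scaled totals (y axis, log scale) in the REH and 697 libraries, with 95% Poisson intervals that are mostly smaller than the points. MALAT1, NEAT1, NORAD, TUG1 and OIP5-AS1 lie between 174 and 471 CPM, PVT1 lies at 29.2 and 15.9 CPM, and the points differ most for OIP5-AS1 and PVT1.

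The sign of the smaller ratios rested on how the library totals were scaled. Without TMM scaling the median log2 ratio of all genes moved by 0.31, and MALAT1 (0.17), NEAT1 (0.24) and TUG1 (0.13) turned higher in REH, while PVT1 passed the threshold at 1.18. NORAD ranged from 0.03 with TMM factors from lncRNA genes to 0.54 with unscaled totals. OIP5-AS1 remained below 0 and PVT1 above 0 under every scaling tried, from -0.94 to -0.42 and from 0.66 to 1.18. With TMM factors from lncRNA genes, every ratio fell by 0.21. The share of genes past the threshold that were higher in REH also moved, from 56.3% with TMM to 68.0% without scaling and 66.4% without scaling and mitochondrial genes, and to 47.5% with TMM factors from lncRNA genes, where more genes were higher in 697.

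**Figure D2:**
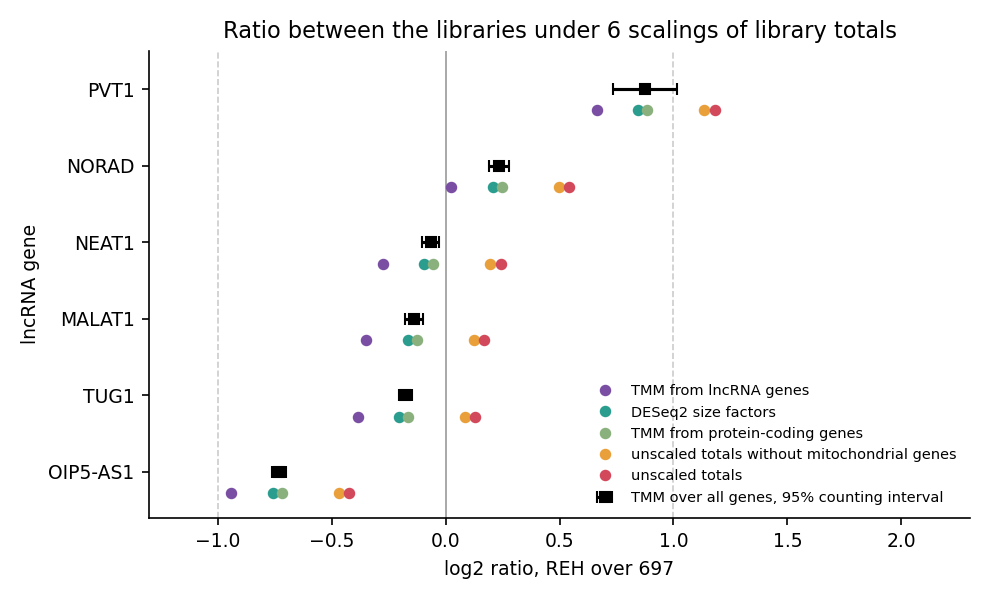
Log2 ratio of REH over 697 (x axis) for each lncRNA gene (y axis), with TMM over all genes as black squares with 95% counting intervals and 5 other scalings as coloured points beneath. Dashed lines mark a log2 ratio of 1 in size; MALAT1, NEAT1 and TUG1 change sign with unscaled totals, whereas OIP5-AS1 (-0.94 to -0.42) and PVT1 (0.66 to 1.18) keep theirs.

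Ranks and ratios taken within a library do not depend on the scaling. In the ranking of all genes by log2 ratio, OIP5-AS1 lay above 22.9% of genes, TUG1 above 40.9%, MALAT1 above 42.5%, NEAT1 above 45.4%, NORAD above 57.3% and PVT1 above 75.4%. Within a library, the number of NORAD reads for each OIP5-AS1 read was 0.721 in REH and 0.369 in 697, a difference of 0.97 on the log2 scale (0.91 to 1.02). PVT1 and OIP5-AS1 stood farthest apart, with 9.74 OIP5-AS1 reads for each PVT1 read in REH and 29.6 in 697, a log2 difference of -1.60 (-1.75 to -1.46). Of the 15 pairs among the 6 genes, the counting interval of the difference held 0 for 1 pair, MALAT1 and TUG1 (0.04, -0.01 to 0.09). These intervals cover counting error only.

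By reads, which also grow with length, 5 of the 6 ranked among the first 13 lncRNA genes in both libraries. Together the 6 took 10.8% of the lncRNA reads in REH (95% Wilson interval 10.7% to 10.9%) and 11.6% in 697 (11.5% to 11.7%), which was 0.161% and 0.151% of all gene reads. TUG1 ranked 2, NEAT1 4, OIP5-AS1 5, MALAT1 7 and NORAD 9 in REH. In 697, OIP5-AS1 ranked 3, TUG1 4, NEAT1 7, MALAT1 8 and NORAD 13. PVT1 ranked 72 in REH and 130 in 697. The share of lncRNA reads was highest for OIP5-AS1 in 697, at 3.26% (3.21% to 3.31%) against 2.12% (2.09% to 2.16%) in REH. MALAT1 took nearly the same share in REH (1.83%, 1.80% to 1.86%) as in 697 (1.86%, 1.83% to 1.90%), and these intervals overlap.

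**Figure D3:**
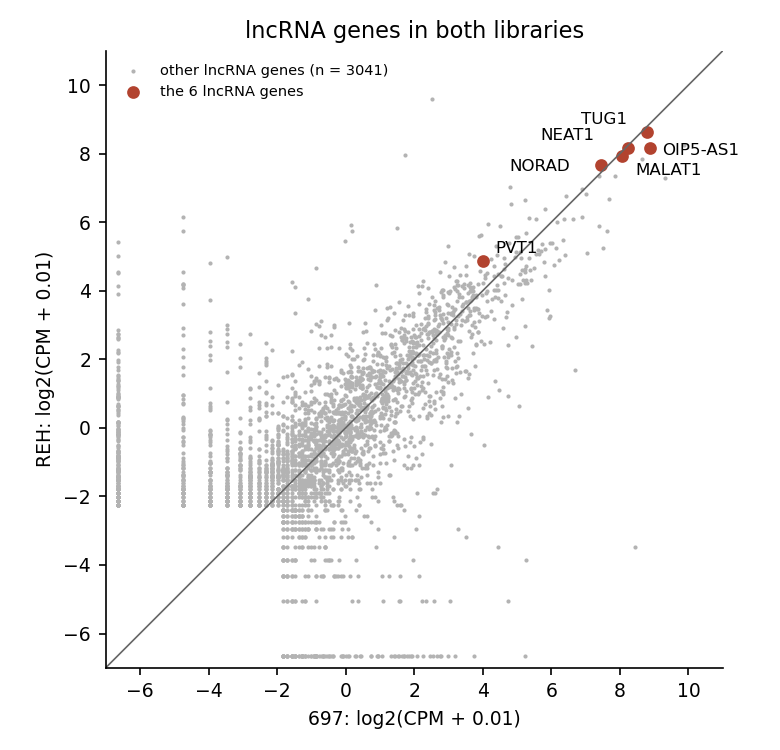
Levels of lncRNA genes in 697 (x axis) and REH (y axis) as log2 of CPM with 0.01 added, with the other lncRNA genes in grey, the 6 genes in red and equal levels on the line. All 6 lie near the line, 5 of them at the upper end and PVT1 lower.

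Levels of different genes compare only per length, and here per kb of summed exons. In REH, TUG1 (39.0 CPM per kb, 38.4 to 39.5) and NORAD (37.9, 37.2 to 38.7) led, with overlapping counting intervals. MALAT1 (23.5, 23.1 to 23.9) followed, then OIP5-AS1 (12.7, 12.5 to 12.9) and NEAT1 (12.6, 12.4 to 12.8), which also overlapped, and PVT1 (1.15, 1.09 to 1.21) came last. In 697 the order was TUG1 (44.1), NORAD (32.2), MALAT1 (25.8), OIP5-AS1 (21.1), NEAT1 (13.2) and PVT1 (0.626), with no overlap of neighbours. MALAT1 ranked 21 in REH and 17 in 697 among lncRNA genes per kb of summed exons, 30 and 27 per kb of longest transcript, and 58 and 60 per kb of canonical transcript.

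The length used mattered for PVT1, OIP5-AS1 and TUG1. GENCODE 44 lists 190 transcripts for PVT1, 72 for OIP5-AS1, 66 for MALAT1, 20 for TUG1, 9 for NEAT1 and 1 for NORAD. The summed exons of PVT1 cover 25.4 kb while its longest transcript has 2.45 kb, so its level per kb of longest transcript was 11.9 CPM in REH and 6.50 CPM in 697. For OIP5-AS1 the canonical transcript of 3.23 kb gave 87.9 and 146 CPM per kb, which placed it above TUG1 (53.0 and 59.8) in both libraries. The levels of MALAT1 and NORAD per kb were the same with each length, and those of NEAT1 nearly so. For NEAT1, however, each length used was that of the long form, at 22.7 to 22.8 kb. Its level per kb of the shorter form was not calculated, so its place in the order holds for the long form only. GENCODE 44 may hold exons that the counting did not use, which lengthen a gene without adding reads.

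**Figure D4:**
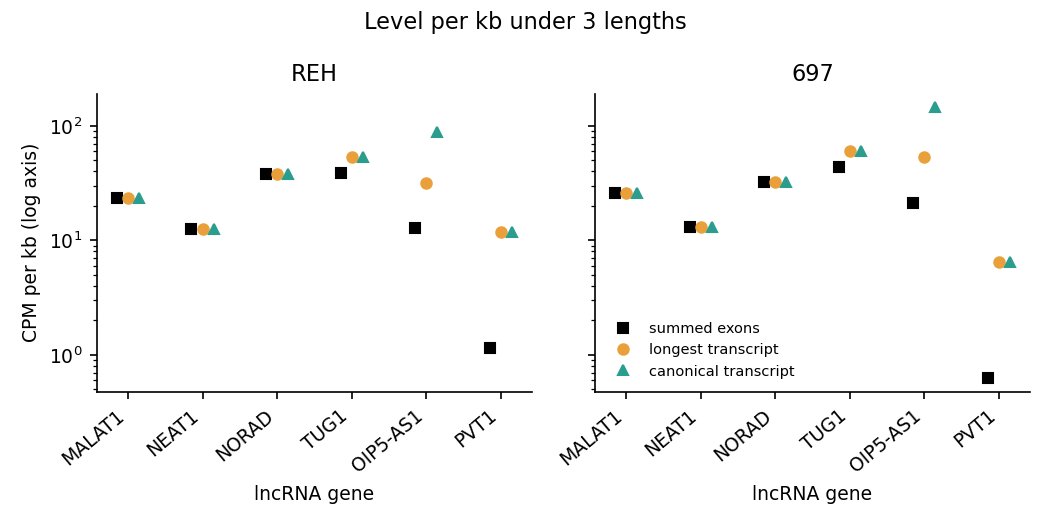
Level in CPM per kb (y axis, log scale) of each lncRNA gene in REH (left) and 697 (right), with the length taken as the summed exons (squares), the longest transcript (circles) or the canonical transcript (triangles). The choice among these lengths barely moves MALAT1, NEAT1 and NORAD, and moves OIP5-AS1 from 12.7 to 87.9 and PVT1 from 1.15 to 11.9 CPM per kb in REH. For NEAT1 each of these lengths is that of the long form.

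Reads in stretches shared with a gene on the other strand were left out of the counts as ambiguous, and the separate strand columns show how many they were. For TUG1, these columns summed to 3812 more reads in REH and 3236 more in 697 than the either-strand count, an excess of 19.2% and 19.6%. The same numbers of reads were missing from the antisense genes ENSG00000269972 (1615 and 1424) and ENSG00000269987 (2197 and 1812), each of which had 0 reads in the either-strand column. The log2 ratio of TUG1 with these reads included was -0.18. For OIP5-AS1, 208 and 217 reads were in the same situation, and OIP5 on the other strand showed an excess of 209 and 218. PVT1 lacked 44 and 20 reads, as did RNU4-25P within it, MALAT1 3 and 9, and NEAT1 and NORAD 0. Reads shared with a gene on the same strand would be missing from every column, so these numbers leave them out. NUSAP1 overlaps the span of OIP5-AS1 in this way. The strand that encodes each lncRNA received between 48.4% of its reads (NORAD in REH) and 51.6% (OIP5-AS1 in 697). TALAM1, the antisense transcript of MALAT1, is not among the gene IDs counted, and its reads cannot be told apart from those of MALAT1.

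NORAD has relatives elsewhere in the genome. Its transcript aligned at 90% identity or more over at least 200 bases with 8 genes, of which HCG11 (90.5% over 4661 bases) and OVCH1-AS1 (95.9% over 4614 bases) matched most of its length. HCG11 had 2712 reads in REH and 1 read in 697, whereas OVCH1-AS1, LINC02211 and LINC02228 had 0 in both, LINC00632 had 1 and 0, and the other 3 were not counted. In 697, 6427 reads assigned to NORAD thus stood beside 1 read assigned to HCG11. Because reads that match several places were left out, the counts of NORAD and HCG11 are uncertain. Multimapping reads made up 10.8% of the REH library and 15.4% of the 697 library, and their part in the NORAD ratio was not tested. The longest transcripts of MALAT1, TUG1 and PVT1 had no such copy among annotated transcripts outside their own locus. For PVT1 this transcript has 2.45 kb against 25.4 kb of summed exons, and for TUG1 7.47 kb against 10.2 kb. The other exons and unannotated sequence were not searched. NEAT1 (GNAS, GARRE1, KCTD21-AS1 and STX8) and OIP5-AS1 (SPPL2A, ITPR1, MGLL and the lncRNA genes ENSG00000287140 and ENSG00000287098) shared stretches of 201 to 280 bases with other transcripts. GNAS had 46779 reads in REH and 60890 in 697, GARRE1 725 and 1138, KCTD21-AS1 507 and 98, STX8 1213 and 1031, SPPL2A 1064 and 880, ITPR1 2279 and 1214, and MGLL 2 and 4.

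Genes within 100 kb of each lncRNA were then inspected, to set the lncRNAs beside their surroundings. PVT1 and MYC, which encodes the growth-promoting transcription factor and starts upstream of PVT1, differed in opposite directions. MYC had 12286 reads in REH and 26677 in 697, or 244 and 722 CPM, with a log2 ratio of -1.56 (-1.59 to -1.53). For each PVT1 read, 8.38 MYC reads were counted in REH and 45.4 in 697, a log2 difference of 2.44 (2.29 to 2.58) that needs no scaling. Of the 8 counted genes within 100 kb of PVT1, MYC alone had at least 100 reads.

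TUG1 and MORC2, a chromatin-silencing ATPase gene, start 0.471 kb apart and are transcribed away from each other. MORC2 had 6942 reads in REH and 2421 in 697, or 138 and 65.5 CPM, with a log2 ratio of 1.08 (1.01 to 1.14), so MORC2 was higher in REH while TUG1 differed little. The log2 ratio of TUG1 lay 1.25 below that of MORC2 (-1.32 to -1.18). Farther away, OSBP2, an oxysterol-binding protein gene, had 316 and 30 reads (log2 ratio 2.93), and SMTN, a smooth muscle protein gene, 2350 and 2635 reads (-0.61). By its strand columns MORC2 had 7495 and 2592 reads, so it also lost reads to an overlapping gene. With TMM factors from lncRNA genes MORC2 lay within the threshold.

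Around OIP5-AS1, the 5 genes with at least 100 reads all had ratios below 0 with TMM scaling, although OIP5 and NDUFAF1 turned above 0 with unscaled totals. NUSAP1, a spindle protein gene that begins within the annotated span of OIP5-AS1 on the same strand, had 14098 reads in REH and 21937 in 697, or 280 and 594 CPM, with a log2 ratio of -1.08 (-1.11 to -1.05). The ratio of OIP5-AS1 lay 0.35 above it (0.31 to 0.40). OIP5, a centromere protein gene on the other strand, had 592 and 503 reads (-0.21, -0.38 to -0.03). CHP1, RTF1 and NDUFAF1 had log2 ratios of -0.34, -0.40 and -0.08. Of these 5 neighbours, NUSAP1 alone passed the threshold, and it lay within it with unscaled totals.

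MALAT1 and NEAT1 share most of their surroundings on chromosome 11. Here SLC25A45, a mitochondrial carrier gene, was higher in REH, at 1213 against 231 reads (log2 ratio 1.95), as was TIGD3 at 202 against 61 (1.28). Within it lay the ratios of FRMD8 (0.30), DPF2 (0.16), LTBP3 (-0.86), MAP3K11 (0.45), EHBP1L1 (-0.65), ZNRD2 (-0.20) and FAM89B (0.40). Beside NORAD, the membrane skeleton gene EPB41L1 had 732 and 165 reads (1.70), PHF20 3370 and 2459 (0.01) and SCAND1 1940 and 2141 (-0.59).

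The genes of proteins that the lncRNAs are known to work with were seldom past the same threshold, as counted in RNA. Protein levels were not measured. Of 15 listed paraspeckle proteins, 14 were tested, and none passed a log2 ratio of 1 in size, against 39.8% of all genes. That share includes many genes with far fewer reads than these 14. The gene ID of TAF15 was not among those counted. The median was -0.33, with 3 genes above 0 and 11 below. SFPQ (761 CPM in REH and 988 in 697, log2 ratio -0.38), an RNA-binding protein of paraspeckles, was among those with the highest CPM, and the extremes were DAZAP1 (0.33) and CPSF6 (-0.91), a cleavage factor subunit.

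Of 13 nuclear speckle proteins, none passed the threshold, and the median of -0.53 lay below that of all genes (0.05). SRRM2 (1762 and 1868 CPM, -0.08) and SON (579 and 492 CPM, 0.23), which hold speckles together, had the highest mean CPM over both libraries, although in 697 SON lay below PNN, SRSF1, SRSF11, SRSF3 and SRSF5. SRSF5 (295 and 543 CPM, -0.88) and RNPS1 (152 and 110 CPM, 0.46) marked the ends of the range. Of the proteins that form RNase P and RNase Z, which cut the ends of MALAT1 and NEAT1, 10 of 11 were tested and 1 passed, POP1 (26.5 and 53.4 CPM, -1.01), a subunit that RNase P shares with RNase MRP, whose counting interval of -1.11 to -0.91 reached below the threshold. At the other end was POP5 (23.6 and 14.9 CPM, 0.66). ELAC2 (106 and 159 CPM, -0.58), the RNase Z itself, and RPP30 (55.0 and 54.2 CPM, 0.02) had the highest CPM, and the list median was -0.09.

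For NORAD, the Pumilio gene PUM2 had 275 CPM in REH and 241 in 697, a log2 ratio of 0.19 beside 0.24 for NORAD itself. KHDRBS1 (444 and 697 CPM, -0.65) and RBMX (397 and 549 CPM, -0.47), RNA-binding proteins that also bind NORAD, had the highest CPM of the 4, whose median was -0.20. Among the proteins bound by OIP5-AS1 or TUG1, the mRNA stabilizer ELAVL1 (162 and 179 CPM, -0.14) and the Polycomb genes EZH2 (294 and 270 CPM, 0.12) and SUZ12 (127 and 163 CPM, -0.37) lay within the threshold, as did EED (-0.24), and the list median was -0.19. All 6 genes of the m6A machinery, which methylates MALAT1 among other RNAs, lay within it too, with a median of -0.27. Here the ends were METTL14 (45.1 and 34.6 CPM, 0.38) and METTL3 (67.0 and 120 CPM, -0.84), which form the methyltransferase together, and HNRNPC (-0.61) and YTHDC1 (0.06), which read the mark or the fold it opens, had the highest CPM. HNRNPK (625 and 842 CPM, -0.43), counted with the paraspeckle proteins, is also the host gene of a miR-7 precursor. Outside the list of RNase P and RNase Z, every gene tested in these protein lists had at least 1000 reads in a library. Their place within the threshold is thus not set against genes of like depth. The counts of these lists also rest on the scaling. With TMM factors from lncRNA genes, CPSF6, SRSF5, SRPK1, PNN and METTL3 passed the threshold as higher in 697, and with unscaled totals POP1 did not.

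**Figure D5:**
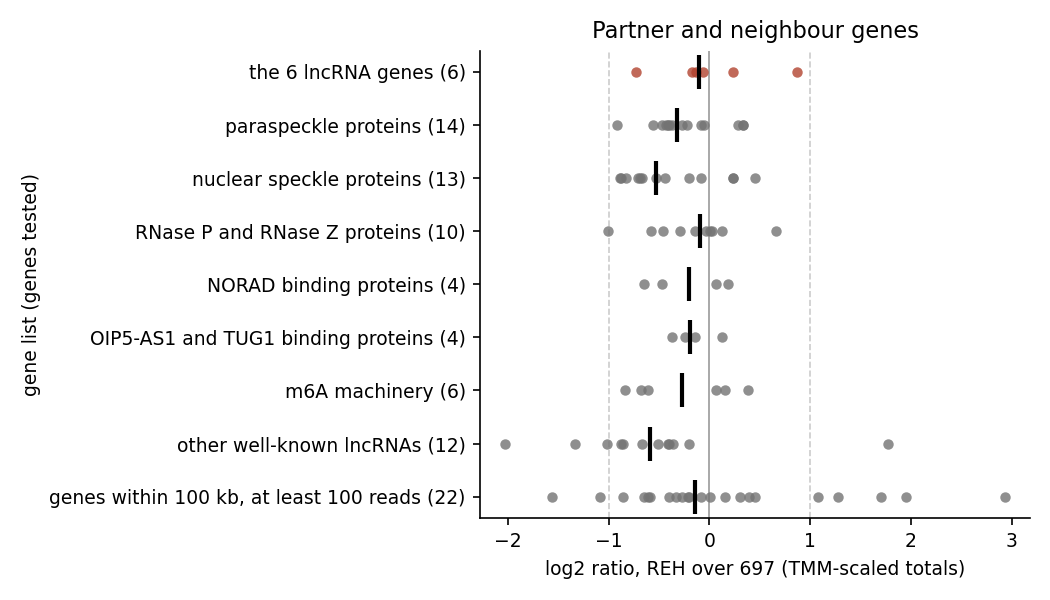
Log2 ratio of REH over 697 (x axis) of each gene tested in the lists of partner proteins and other lncRNAs, and of each neighbour with at least 100 reads in a library (y axis, number of genes in brackets), with black bars at the medians and dashed lines at 1 in size. The 6 lncRNA genes and the protein lists lie within the dashed lines except POP1 (-1.01), while these neighbours within 100 kb range from -1.56 (MYC) to 2.93 (OSBP2).

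Finally, the lncRNA genes closest to each of the 6 were sought by distance in the plane of log2 CPM in the 2 libraries. SNHG1, a host gene of small nucleolar RNAs with 11544 reads in REH and 14659 in 697, was the closest to MALAT1 (distance 0.57), NEAT1 (0.51), TUG1 (0.80) and OIP5-AS1 (0.39), and FGD5-AS1 (8239 and 6160 reads) was the closest to NORAD (0.33). LINC01215 (1516 and 696 reads, 0.25) was the closest to PVT1. The second closest was SNHG32 for MALAT1 (0.64), NEAT1 (0.91) and NORAD (0.54), SNHG29 for TUG1 (1.14), GAS5 for OIP5-AS1 (0.96) and ENSG00000235609 for PVT1 (0.31). With 2 libraries, such closeness describes levels only.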

How the data were processed

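REH and 697 were each sequenced as 1 library. As deposited, each table holds unnormalized read counts by gene from STAR, for either strand and for each strand on its own, and 4 summary rows that were left out of the gene totals. Reads that map to several places were not counted. The methods name hg38 and the labels hg19, and the gene annotation used for counting is not given in the sources used here. Symbols, positions, lengths and transcript sequences came from GENCODE 44 on GRCh38 by gene ID, matching 51996 of 57773 IDs, and no genome sequence was read by coordinates.

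The either-strand counts of both libraries were used. Totals were scaled by TMM in edgeR 4.0.16 (R 4.3.3) over the 19145 genes that reached 10 reads in either library, with factors of 1.11 for REH and 0.899 for 697. Ratio intervals are exact Clopper-Pearson, level intervals exact Poisson, shares Wilson, and differences of log2 ratios normal approximations from the reads, all at 95% and for counting error only. The calculation of ratios and their intervals was checked on simulated Poisson counts with known totals. This check covers neither the TMM scaling nor variation between cultures. Copies were sought with BLAST 2.17.0, and the rest ran in Python 3.11.15 (scipy 1.17.1, pandas 2.3.3, numpy 2.4.6), with plots by matplotlib 3.10.9.

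The members and lists were chosen with earlier results of these data known. Named are the 6 genes and, per list, the 2 most abundant and the genes with the highest and lowest ratio among those with 100 reads, per lncRNA the 2 closest lncRNA genes, each neighbour with 100 reads and each copy; a few further listed genes were named after their values were seen. A few genes that this rule names are not reported here. The study's DESeq2 test needs replicates, so no p-value is given. DESeq2 1.42.0 size factors and the other alternatives are described under the dependence on processing.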

Additional observations from a re-analysis of the deposited data

How the results depend on the processing

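No paired analysis was possible because REH and 697 have 1 library each, and for the same reason no replicate could be left out. The median log2 ratio of the 6 lncRNAs was -0.10, turned to 0.21 with unscaled totals and 0.16 with unscaled totals without mitochondrial genes, and lay between -0.31 and -0.08 under the other 7 alternatives. The number past a log2 ratio of 1 stayed at 0 except in these unscaled alternatives, where it was 1 in each (PVT1, 1.18 and 1.13). Summing the strand columns was an alternative chosen after seeing the data. The numbers of genes past the threshold, 4293 for REH and 3336 for 697 with 956 and 608 lncRNA genes among them, depended on the scaling and the read minimum. They were 5456 and 2566 with unscaled totals, 5259 and 2665 with unscaled totals without mitochondrial genes, and 3703 and 4094, with the larger number for 697, with TMM factors from lncRNA genes. Lowering it to 1 read gave 9319 and 7075 genes, with 2410 and 1592 lncRNA genes. Raising it to 50 reads gave 2729 genes for REH, and 426 and 276 lncRNA genes for REH and 697. Counting error was small for all 6 lncRNAs except PVT1, and variation between cultures cannot be estimated.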

Other observations

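Other well-known lncRNAs, listed for comparison, were mostly lower in REH. Of 17 listed, 12 were tested, 11 had a log2 ratio below 0 and 1 above, and 3 and 1 of them passed 1 in size, against 17.4% and 22.4% of all genes. The median was -0.59. Among all 3047 lncRNA genes tested, 1268 had a ratio below 0, the median was 0.29, and 51.3% passed 1 in size. Among the 128 with at least 1000 reads in a library, 68 lay below 0 and the median was -0.13. GAS5, a growth-arrest lncRNA that hosts small nucleolar RNAs, was read 7913 times in REH and 23677 times in 697 (log2 ratio -2.03, -2.06 to -1.99), ZFAS1, another such host, 5152 and 7655 (-1.02), and EPB41L4A-AS1 1348 and 2494 (-1.33). MIAT, a nuclear lncRNA, was the exception with 763 reads in REH and 164 in 697 (1.77, 1.53 to 2.03). Without TMM scaling every ratio rises by 0.31, which leaves GAS5, EPB41L4A-AS1 and MIAT past the threshold and ZFAS1 within it. With TMM factors from lncRNA genes every ratio falls by 0.21, which takes CRNDE (-0.88) and DANCR (-0.86) past it. MEG3 and HOTAIR had 0 reads in both libraries, CYTOR 1 and 0, and H19 3 and 3. Copies of these genes were not sought, and reads that map to several places were not counted, so such counts do not establish absence.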
